A study of Mus musculus with 2 samples.

Results

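Fgf13 and 9 other genes of the fibroblast growth factor (FGF) system were compared between adipose tissue of mice on a normal and on a high fat diet. The members were chosen by gene symbol, as the probe sets whose only annotated symbol is Fgf13, Fgf1, Fgf2, Fgf7, Fgf10, Fgf21, Fgfr1, Fgfr2, Fgfr3 or Klb. They are 10 of the 18193 genes with such a probe set, and 20 probe sets carry them. Their difference between the diets was known when they were chosen, so the values below are a description and no test is built on them.

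All animals were C57BL/6 mice, an inbred laboratory strain, with no genetic change named in the labels. The chow array was hybridised with pooled RNA of 3 mice kept on the normal diet CE-2, and the high fat array with pooled RNA of 3 mice kept on the diet HFD32 to make them obese. Feeding ran from 6 to 18 weeks of age, when the tissue was taken. Neither the fat depot nor the sex is stated in the labels. With 1 pool and 1 array per diet there are no replicates, no p-value can be given, and the spread between animals is unknown. Every difference below is the log2 signal of the high fat array minus that of the chow array, so that a difference of 1 is a 2-fold ratio.

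Most FGFs are secreted proteins that bind heparan sulfate and activate tyrosine kinase receptors of the FGFR family, which signal through the ERK kinases. A small endocrine group, to which FGF21 belongs, binds heparan sulfate weakly and needs a Klotho protein as coreceptor; for FGF21 this is beta-Klotho, encoded by Klb. A further group, the FGF homologous factors, stays inside the cell: FGF13 is one of them and is known in neurons and heart as a partner of voltage-gated sodium channels and, in neurons, of microtubules. In fat, FGF1 is known as a target of PPAR gamma, FGF10 as a factor for preadipocytes, and FGF21 as a hormone of liver and fat that acts on adipocytes through FGFR1 and beta-Klotho.

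Fgf13 lies on the X chromosome and has 4 start sites in the RefSeq promoter table for GRCm38.p6. Both of its probe sets carry the same GenBank record in the platform annotation, so the array values cannot be assigned to 1 of these starts. The 250 bases before each start are shown because Fgf13 has the highest difference among the 10 members, numbered from the most upstream start. Capitals mark matches to 5 motifs searched on both strands, namely TATAAA, known as the TATA box, GGGCGG, the GC box, CACGTG, the E-box, TTGCATCA, the core of the amino acid response element, and AGGTCA, a motif of nuclear receptors.
Fgf13 start 1, chrX:59585573-59585822, minus strand: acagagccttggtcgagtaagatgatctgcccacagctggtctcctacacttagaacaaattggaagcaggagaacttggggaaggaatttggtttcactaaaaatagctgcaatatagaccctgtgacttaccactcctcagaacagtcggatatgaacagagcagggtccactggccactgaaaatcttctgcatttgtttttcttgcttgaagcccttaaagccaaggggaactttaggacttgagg
Fgf13 start 2, chrX:59567349-59567598, minus strand: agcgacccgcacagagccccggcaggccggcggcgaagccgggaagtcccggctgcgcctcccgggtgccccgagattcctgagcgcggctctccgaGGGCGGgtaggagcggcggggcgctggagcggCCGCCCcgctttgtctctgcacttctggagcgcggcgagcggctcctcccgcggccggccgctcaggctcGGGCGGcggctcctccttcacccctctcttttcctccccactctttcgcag
Fgf13 start 3, chrX:59166089-59166338, minus strand: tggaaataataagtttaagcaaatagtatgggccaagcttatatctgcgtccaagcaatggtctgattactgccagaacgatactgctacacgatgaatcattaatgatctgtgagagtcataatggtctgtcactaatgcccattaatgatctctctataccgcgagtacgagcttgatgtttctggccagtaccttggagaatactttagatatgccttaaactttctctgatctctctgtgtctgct
Fgf13 start 4, chrX:59134437-59134686, minus strand: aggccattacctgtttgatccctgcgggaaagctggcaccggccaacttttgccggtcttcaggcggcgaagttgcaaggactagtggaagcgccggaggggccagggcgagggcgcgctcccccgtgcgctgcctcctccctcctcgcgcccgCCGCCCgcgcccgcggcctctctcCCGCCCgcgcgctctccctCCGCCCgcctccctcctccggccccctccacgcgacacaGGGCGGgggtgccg
Starts 2 and 4 are rich in G and C, at 74.8% and 74.4% against a median of 52.4% over 32851 such windows of 27025 genes, and hold 33 and 31 CpG dinucleotides against a median of 6. They hold 3 and 4 GC boxes, a motif found in 32.7% of all windows. Starts 1 and 3 have 45.6% and 40.4% G and C, 2 and 6 CpG dinucleotides, and no match to any of the 5 motifs. The other motifs have no match at the 4 starts.

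Fgf21 is shown beside Fgf13 because its difference is the next highest among the members.
Fgf21 start 1, chr7:45615491-45615740, minus strand: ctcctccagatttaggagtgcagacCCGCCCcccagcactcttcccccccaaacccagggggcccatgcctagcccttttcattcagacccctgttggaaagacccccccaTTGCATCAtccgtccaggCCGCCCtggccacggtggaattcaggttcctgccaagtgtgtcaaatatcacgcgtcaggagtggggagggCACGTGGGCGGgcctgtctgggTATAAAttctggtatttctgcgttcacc
This window has a TATA box at position -28 from the start, an E-box at -50, an amino acid response core at -139 and 3 GC boxes. The E-box shares 1 base with the GC box after it. TATAAA is present in 12.4% of all windows, CACGTG in 6.02%, TTGCATCA in 0.791% and AGGTCA, which is absent from the windows of both genes, in 14.0%. A match describes the letters alone, and no binding was measured.

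Fgf13 was much higher on the high fat array on both of its probe sets. Probe set 1418497_at had a log2 signal of 9.11 on the chow array and 12.10 on the high fat array, a difference of 2.98 and a ratio of 7.91. Probe set 1418498_at had 5.42 and 9.53, a difference of 4.11 and a ratio of 17.2. All 4 signals lie above background, taken as the 95th percentile of 83 probe sets of sensory receptor genes (4.92 on the normal and 4.95 on the high fat array). The probe sets thus gave the same direction but not the same size. Their differences lay 1.12 apart. Among 3105 genes with a pair of probe sets above the floor defined below, the median gap was 0.18 and the 95th percentile 0.70. Of these genes, 32, Fgf13 among them, had a gap at least as large as that of Fgf13. Most genes differed little between the arrays, with quartiles of -0.23 and 0.23 over all genes above the floor. Gaps of genes with large differences alone were not computed.

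**Figure D1:**
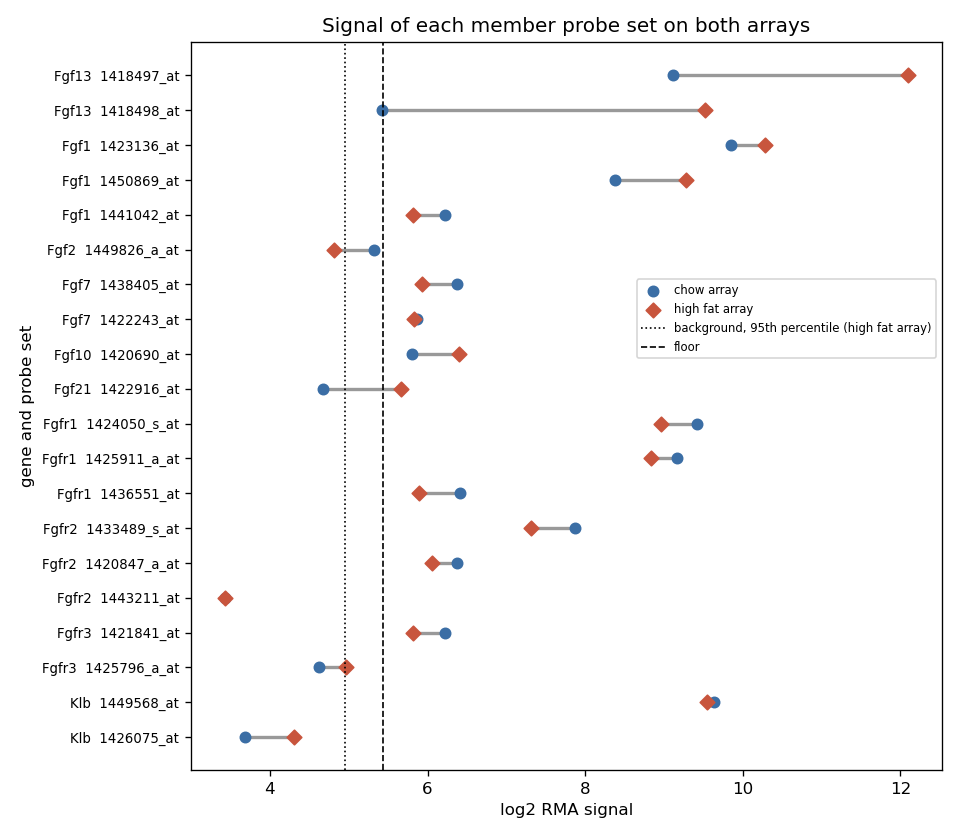
Log2 RMA signal (horizontal axis) of the 20 member probe sets (vertical axis) on the chow array (circles) and the high fat array (diamonds), 1 array per diet, with the background level and the floor as vertical lines. The 2 Fgf13 probe sets have the longest lines, from 9.11 to 12.10 and from 5.42 to 9.53. Signals of different probe sets are not comparable with each other.

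For the comparison of genes, each gene was represented by its probe set of highest mean signal, and entered if that mean reached 5.44, the median over all probe sets other than controls (the floor). Of the 10 members, 8 reached it, and Fgf2 and Fgf21 did not. Fgf13 was the 1 member higher by 2-fold or more and 0 were lower by as much, beside 3.28% (higher) and 3.29% (lower) of all 11778 genes that reached the floor. Fgf13 stood 23rd from the top of these genes; as the members were chosen on this contrast, nothing is read from its rank. The other 7 members above the floor had differences from -0.55 to 0.60 on these probe sets, and Fgf1 had 0.90 by the median of its probe sets. The members above the floor had a median difference of -0.24, against 0 over all genes. With the floor at the 75th percentile, which Fgf13, Fgf1, Fgfr1 and Klb alone reached, it was 0.17. With the median over the probe sets of a gene it was 0.27. That is the value of Klb, 1 of whose probe sets is below background on both arrays. At 1.5-fold, 2 members (Fgf13 and Fgf10) were higher and 0 lower, beside 8.2% and 8.52% of all genes.

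**Figure D2:**
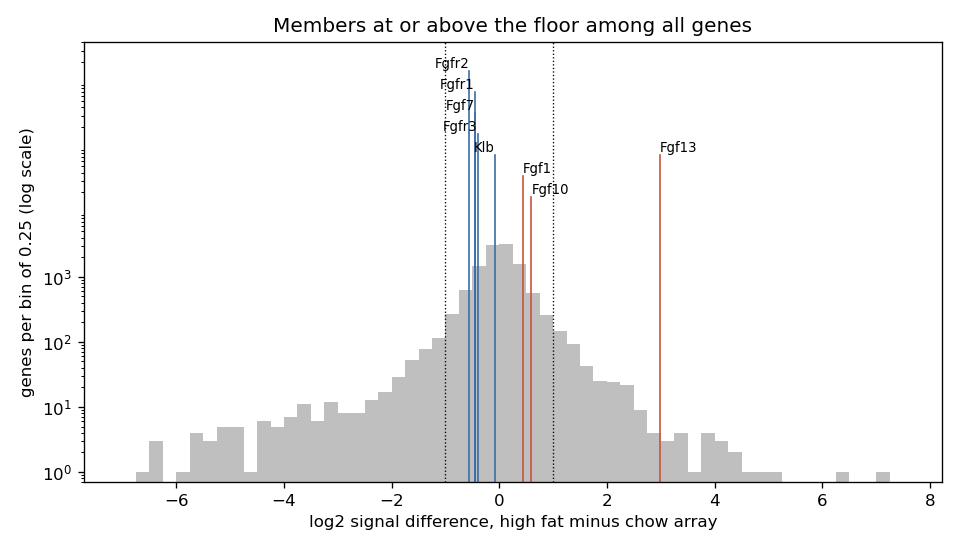
Number of genes (vertical axis, log scale) by difference in log2 signal, high fat minus chow array (horizontal axis, bins of 0.25), for the 11778 genes above the floor; lines mark the 8 members above the floor, and dotted lines a 2-fold ratio. Fgf13 lies at 2.98, and the other 7 lie between -0.55 and 0.60 on their probe sets of highest mean.

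Of the secreted ligands, Fgf1 and Fgf10 were higher on the high fat array and Fgf7 was lower, all by less than 2-fold. Fgf1, the acidic FGF that binds all FGF receptors, had 9.85 and 10.28 on its brightest probe set, a ratio of 1.35. Its other probe sets disagreed with each other: one had 8.38 and 9.27, a difference of 0.90, and the dimmest had 6.22 and 5.81, a difference of -0.40. The direction for Fgf1 therefore rests on 2 of 3 probe sets. Fgf10, a mesenchymal ligand of FGFR2, had 5.80 and 6.40 on its only probe set, a ratio of 1.51. Fgf7, the keratinocyte growth factor and a further ligand of FGFR2, had 6.38 and 5.93 on one probe set and 5.87 and 5.83 on the other, with differences of -0.45 and -0.04.

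Both remaining ligands lay close to background. Fgf21, the endocrine member, had 4.67 on the chow array, below background, and 5.67 on the high fat array, a difference of 0.999, just under 2-fold; counted from background it was at least 1.68-fold higher. Fgf2, the basic FGF, had 5.32 on the chow array and 4.81, below background, on the high fat array, a ratio of at least 1.29 in favour of chow. Each was measured by 1 probe set, so neither has a second measurement on the array. Liver also makes FGF21, and on these arrays all 16 hepatocyte markers were lower on the high fat array, opposite to Fgf21; the part of liver RNA in the Fgf21 signal was not tested.

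On their brightest probe sets the receptors were lower on the high fat array by less than 1.5-fold. Of the receptors, Fgfr1 alone was lower on all of its probe sets. Fgfr1, the receptor that beta-Klotho works with in adipocytes, was lower on 3 of 3 probe sets, with 9.42 and 8.96, 9.17 and 8.84, and 6.41 and 5.89. These pairs give differences of -0.46, -0.33 and -0.53, so the 3 probe sets lay within 0.27, the SD between probe sets of 1 gene, of each other. Fgfr2, the receptor of FGF7 and FGF10, had 7.87 and 7.31 on its brightest probe set and 6.37 and 6.05 on the next, differences of -0.55 and -0.32. Its dimmest probe set had the same value, 3.43, on both arrays, below background. With probe sets left out whose name marks a match to several transcripts (suffix _a_at among them), Fgfr2 keeps this dimmest probe set alone. Fgfr3 had 6.22 and 5.81 on one probe set, a difference of -0.40, whereas the other had 4.62 and 4.96, a difference of 0.34 with the normal diet signal below background. The coreceptor gene Klb differed little, with 9.63 and 9.55 (a difference of -0.08) on its brighter probe set, and its other probe set, at 3.68 and 4.31, was below background on both arrays.

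The lower signals of the brightest receptor probe sets came with lower markers of several cell types that express FGF receptors. All 6 endothelial markers were lower (median -0.61), as were all 7 mesothelium markers (median -1.13) and all 6 smooth muscle markers (median -1.61). Progenitor and fibroblast markers had a median of -0.28, with 6 of 9 lower. Adipocyte markers had a median of -0.14, with 6 of 8 lower. By 2-fold or more, 1 of them, Lep, was higher (1.08) and 0 were lower, beside 3.28% and 3.29% of all genes above the floor. In such bulk RNA, fewer cells of a type and less RNA per cell cannot be told apart, and the part of these cells in the receptor signals was not tested.

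The remaining FGF genes were mostly at background. Of 13 other secreted ligands, 8 were below background on both arrays and 2, Fgf9 and Fgf18, reached the floor, both with a difference of 0.16; the second probe set of Fgf9 had -0.47. Among the relatives of Fgf13 inside the cell, Fgf12 and Fgf14 were below background on all of their probe sets. Fgf11, the third relative, stood opposite to Fgf13: it had 6.88 and 5.77 on its brighter probe set, a ratio of 2.16 in favour of the normal diet, and 5.08 and 4.95 on the other, a difference of -0.13. Fgfrl1, a receptor without a kinase domain, had 11.67 and 11.62, and Fgfr4 had 6.02 and 6.01. Kl, which encodes alpha-Klotho, the coreceptor of FGF23, was below background on both arrays, as were the carrier genes Fgfbp1 and Fgfbp3.

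Genes that relay the receptor signal differed little. Of 14 measured genes, 7 were higher and 7 lower, 0 of them by 2-fold, beside 3.28% (higher) and 3.29% (lower) of all genes. The list median was -0.04. Grb2, the adaptor that links receptors to the Ras exchange factors, had the highest difference (0.51), while the kinase gene Braf (-0.29), the phosphatase gene Ptpn11 (-0.26) and the exchange factor gene Sos2 (-0.25) had the lowest on their probe sets of highest mean. Ptpn11 was positive on 2 of its 3 probe sets and Braf on 1 of 9. Targets and feedback regulators of FGF and ERK signalling had a median of -0.20 over 16 genes, with 12 lower, 3 higher, 1 equal and 0 past 2-fold in either direction. Spry4, a feedback inhibitor of receptor tyrosine kinases, stood apart from this, with 6.76 and 7.74, a ratio of 1.97, and a positive difference on all 4 of its probe sets. Dusp4, an ERK phosphatase, had -0.80, and the immediate early genes Ier3 and Egr1 had -0.66 and -0.58. Dusp6, a phosphatase of ERK often used as a readout of FGF signalling, had 8.61 and 8.55.

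Heparan sulfate, the sugar chain that FGFs and their receptors bind together, is carried by syndecans and glypicans. Of 18 genes for these carriers and for the enzymes that make and trim the chain, 10 were higher and 8 lower, with a median of 0.06. By 2-fold or more, 2 were higher and 0 lower, beside 3.28% (higher) and 3.29% (lower) of all genes above the floor. With the median over the probe sets of a gene, 1 was higher by as much. Sdc1, the syndecan of epithelia and plasma cells, had 7.55 and 8.67, a ratio of 2.17, with a positive difference on all 4 probe sets. Gpc1, a glypican, had 7.16 and 8.21 on its only probe set, a ratio of 2.07. Sdc3 had 0.87, and Sulf1, which removes sulfate groups from the chain outside the cell, had -0.36 but was positive on 1 of its 3 probe sets.

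Genes for the sodium channels and scaffold proteins known to bind FGF13, and for related proteins, are called partner genes here. The partner genes did not stand high with Fgf13. Whether each of their products binds FGF13 was not tested. Of 17 measured genes for sodium channels, scaffold proteins and p38 kinases, 10 were below background on both arrays, among them Scn1a, Scn2a, Scn8a and Scn9a and the neuronal tubulin gene Tubb3. Of the 6 above the floor, 5 were lower on the high fat array, with a median of -0.40. By 2-fold or more, 1 of them was lower, beside 3.29% of all genes above the floor. Scn7a, a channel homologue that senses sodium, had 11.05 and 10.19, a ratio of 1.81, and was lower on all 3 probe sets. The channel beta subunit gene Scn3b had 7.15 and 6.06, a ratio of 2.12. Mapk8ip2, the scaffold known to bind FGF homologous factors, had 6.18 and 6.25, and its paralogue Mapk8ip1 had -0.48, with the opposite sign on the other of its 2 probe sets; Mapk8ip2 was positive on 4 of 5.

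**Figure D3:**
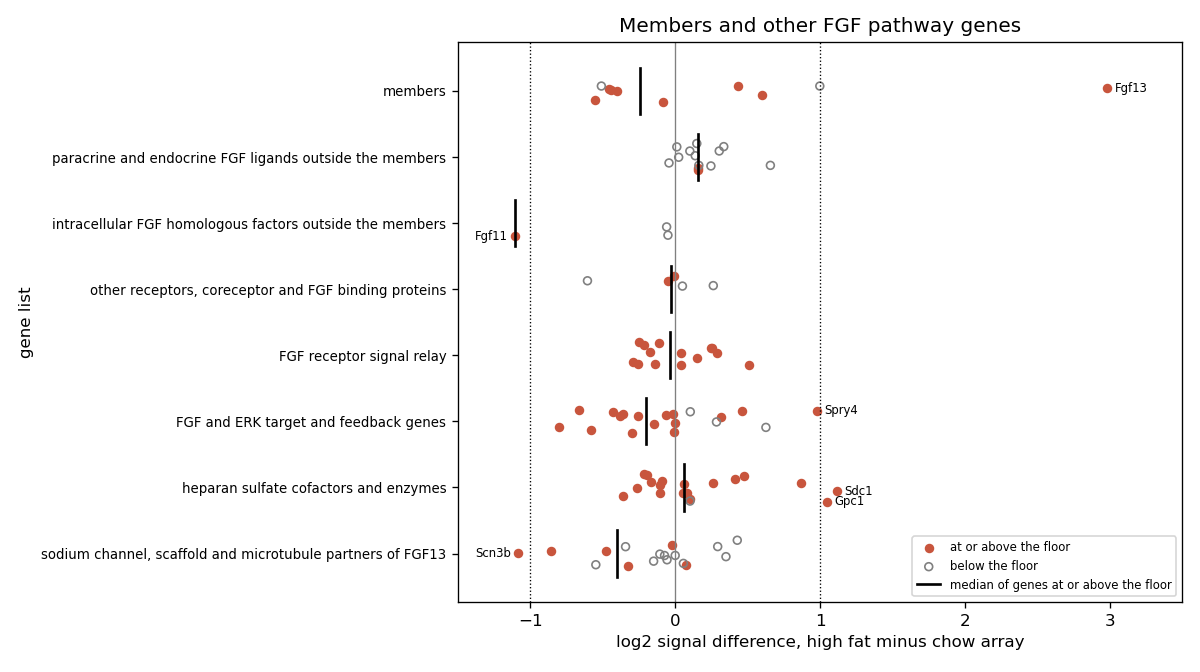
Difference in log2 signal, high fat minus chow array (horizontal axis), of each measured gene of the members and of 7 pathway lists (rows). Filled points are genes at or above the floor, open points genes below it, bars list medians and dotted lines a 2-fold ratio; Fgf13 (2.98), Sdc1 (1.12) and Gpc1 (1.05) lie past it upward, Fgf11 (-1.11) and Scn3b (-1.09) downward.

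Adipocyte markers were bright on both arrays, and markers of several other tissues differed between them; which cells these signals came from was not tested. Adipoq, which encodes adiponectin, had 14.21 and 14.12. The median signal of the 16 hepatocyte markers was 10.10 on the chow array and 5.67 on the high fat array. By 2-fold or more, 15 of them were lower on the high fat array, beside 3.29% of all genes above the floor. Of 9 measured pancreas markers 6 were lower, and of 10 skeletal muscle markers 9. Of 7 measured epididymis markers 6 were higher and 1, Defb2, was lower (5.15 and 4.17); their median signals were 4.26 and 8.32, and 5 of them were below background on the chow array. Macrophage markers were higher in 11 of 11 cases, with a median of 1.65.

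Beside Fgf13, a gene best known from neurons, the neuron and Schwann cell markers went both ways. Of 12 measured markers 5 were higher and 7 lower, and 5 were below background on both arrays. Of the 4 above the floor, 3 were higher, S100b by 0.32, Mbp by 0.17 and Sox10 by 0.07, all Schwann cell or glial genes, though Mbp was positive on only 2 of its 8 probe sets. The adhesion molecule gene Ncam1 had -1.43 on its brightest probe set but was positive on 3 of 7. Their median was 0.12. Below the floor, the synaptic gene Snap25 had 6.76 and 2.85. Most epididymis markers and all 11 macrophage markers differed in the direction of Fgf13. Of 8 adipocyte markers, 2 did, Lep among them, and 6 were lower. The part of nerve, epididymis, macrophage or adipocyte RNA in the Fgf13 signal was not tested.

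**Figure D4:**
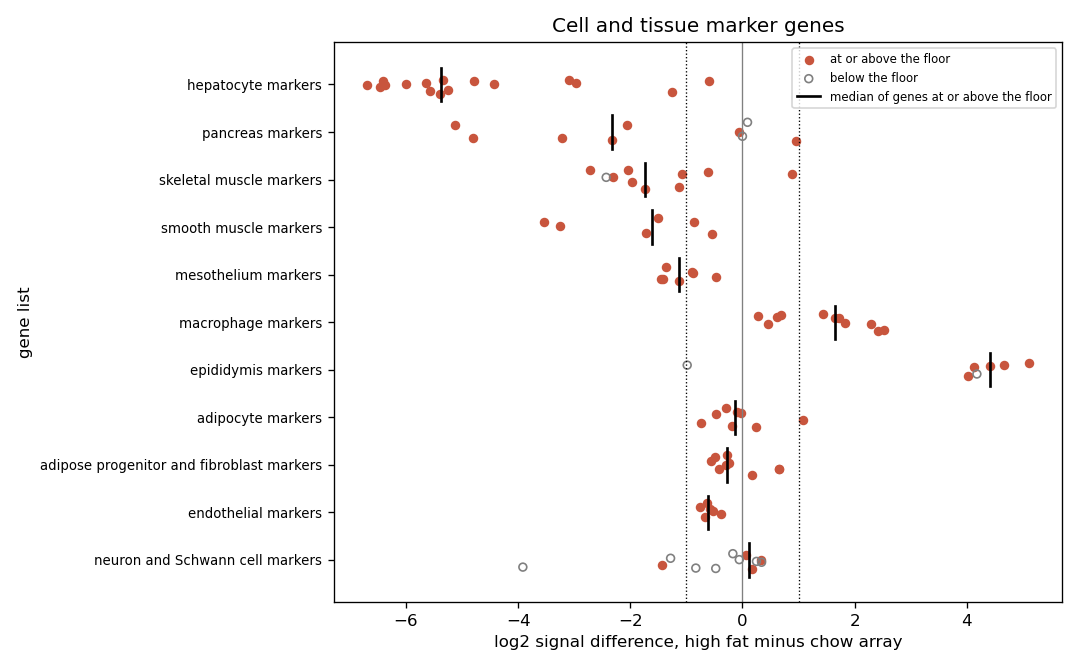
Difference in log2 signal, high fat minus chow array (horizontal axis), of marker genes of 11 cell types and tissues (rows). Filled points are genes at or above the floor, open points genes below it, bars medians and dotted lines a 2-fold ratio; hepatocyte markers have the lowest median (-5.37), and the epididymis markers above the floor, most of which reached it through the high fat array, the highest (4.41).

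The genes whose 2 signals were most like those of Fgf13 were sought by the distance between their pair of log2 signals and that of its brighter probe set. Over 2 arrays this measure says little, and it depends on how bright each probe set is. The 5 nearest genes were Pcolce2, an enhancer of procollagen processing, at a distance of 0.80, Mtarc1, a mitochondrial molybdenum enzyme, at 0.84, Mpeg1, a perforin-like protein of macrophages, at 0.91, the myeloid adaptor Tyrobp at 1.03 and the macrophage glycoprotein Cd68 at 1.09. None of them matched the size of the Fgf13 difference: theirs were 1.88, 2.08, 1.81, 1.72 and 2.30.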

How the data were processed

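RNA of 2 pools of 3 mice, 1 per diet, was measured on 1 Affymetrix mouse expression array each. The deposited values are log2 signals of 45101 probe sets, made by the authors with RMA, per the submitters' processing notes, which correct background, normalize the arrays to each other and summarise the probes of a probe set; the RMA version was not given in the sources used here. That the scale is log2 was taken from the values (2.04 to 14.28). Such normalization removes any difference in total RNA and compresses differences at both ends of the scale.

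Probe sets were named from the platform annotation, which can be old, and 34754 of 34958 with 1 symbol were found by Entrez ID in a RefSeq table for GRCm38.p6, which changed 0 symbols. The 64 control probe sets were left out. Ratios with the dimmer array below background were computed against background and are written "at least". Levels and differences were computed with pandas 2.3.3, and the steps were tested on simulated data. The members, lists and settings were chosen with earlier results of these data known. Named genes are all members, and of each pathway list the 3 farthest in the direction of its median, the 1 farthest the other way and any past 2-fold; Dusp6, Fgfrl1 and other family genes, channel genes below background and single markers were named outside this rule. List members without a probe set of their own were not analysed here. Promoter sequences are those of RefSeq, GRCm38.p6. The number of arrays limits the precision.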

Additional observations from a re-analysis of the deposited data

How the results depend on the processing

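No paired analysis was possible because each diet has 1 array. Raising signals under background to it could not change the differences of the Fgf13 probe sets, because all of their signals lie above background. Centring the arrays on their medians shifts every gene alike, and gave 3.06 and 4.18 for these probe sets. The shift is less than 0.27, the SD between probe sets of 1 gene. Neither setting therefore tests the Fgf13 differences. With the median over the probe sets of a gene, the difference of Klb was 0.27 and that of Fgf1 0.90 (0.43 on its brightest probe set). That of Fgfr3 was -0.032 (from -0.40) and that of Fgf13 3.55 (from 2.98). The median of the members was then 0.27, the value of Klb. For the FGF homologous factors outside the members it was -0.62, the value of Fgf11, which alone of them reached the floor. By 2-fold or more, 0 of these factors were then lower and 1 heparan sulfate gene was higher. With the floor at the 75th percentile the median of the members was 0.17, 0 partner genes of FGF13 were at least 2-fold lower, and 190 of all genes were higher and 132 lower. With no floor the homologous factors had a median of -0.059 and the partner genes of FGF13 -0.074. With the arrays centred, 1 ERK target gene was at least 2-fold higher. At 1.5-fold, 2 members and 1 ERK target gene were higher, and 2 ERK target genes and 2 partner genes of FGF13 lower. Of all genes, 966 were higher and 1004 lower. At another floor or fold the counts differ because fewer or more genes enter or a lower fold is asked. Centring raises every difference alike, and so took Spry4 (0.98) past 2-fold. The median over probe sets changes the value of a gene by taking in its dimmer probe sets. Why the probe sets of 1 gene disagree was not tested. With probe sets left out whose name marks a match to several transcripts, Fgfr2 keeps 1 probe set, below background. Its difference is then 0 (from -0.55), and Fgf2 keeps none. This setting also leaves out probe sets with the suffix _a_at, among them the only one of Fgf2.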

Other observations

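Whether the genes next to Fgf13 on the X chromosome share its difference cannot be told, because none of those measured reached the floor. Of the 8 protein-coding genes nearest to it in the RefSeq order, 4 on each side, 5 were measured, and 0 of them reached the floor. F9, the gene of coagulation factor IX made in liver, had 5.10 on the chow array and 4.18 on the high fat array, a difference of -0.92, in the direction of the hepatocyte markers. Mcf2 had 2.63 and 2.54, and Gpr101, Gm364 and 4930550L24Rik were likewise below background on both arrays. These neighbours were looked up after the values of Fgf13 were known.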
